A study of Mus musculus with 6 samples.

Results

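JAK kinases and STAT factors carry cytokine signals from the cell surface to the nucleus, and 9 genes of these families were examined in resting splenic CD8+ T cells (CD8-TC) with and without the transcription factor Runx3. The genes comprised 3 kinases (Jak1, Jak3 and Tyk2) and 6 STAT factors (Stat2, Stat3, Stat4, Stat5a, Stat5b and Stat6). Of these, 8 (2 kinases and 6 STAT factors) were among the 9924 genes tested on the arrays, and Jak3 was not tested. Each was taken from the probe set that the platform annotation pairs with its symbol, and the brightest probe set would have represented a gene with several. For 8 of the 9 genes exactly 1 probe set was paired with that gene alone. For Jak3 the probe set also reads Insl3, a hormone gene that lies inside the span of Jak3 in the RefSeq table, so that no value could be assigned to Jak3 itself. RNA was hybridised to whole-transcript arrays (Affymetrix mouse Gene 1.0 ST), 3 from WT (Runx3 +/+) and 3 from Runx3-/- mice, each array from a single male ICR mouse aged 6 weeks. ICR is an outbred stock, so that littermates and unrelated mice differ genetically. WT cells were selected on anti-CD8 beads, and Runx3-/- cells were selected likewise and then sorted to remove CD8+ dendritic cells carrying CD11c. Genotype and this extra sorting step cannot be told apart in these arrays, and one label names sorting for every sample. What the Runx3-/- allele lacks is not stated there.

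A cytokine that binds its receptor brings together JAK kinases held on the receptor tails, and these phosphorylate the receptor and then STAT factors, which pair up, enter the nucleus and switch on genes. Jak1 and Jak3 serve the receptors that contain the common gamma chain, such as those for IL-2, IL-7 and IL-15, on which CD8-TC depend for survival and proliferation, whereas Tyk2 works with Jak1 at type I interferon receptors and also serves the IL-12 receptor. Stat5a and Stat5b answer IL-2, IL-7 and IL-15, Stat3 answers IL-6, IL-10 and IL-21, Stat4 answers IL-12, and Stat6 answers IL-4. Stat2 acts in the type I interferon response, together with the factor Irf9. Signalling depends on phosphorylation of these proteins, which RNA levels do not report.

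The start regions of these genes differ in the sequence motifs they hold. RefSeq windows (GRCm38.p6) from 250 bases before to 50 bases after a gene's start were found for all 9 genes and searched on both strands for RUNX motifs (TGTGGT or TGTGGC or TGCGGT or TGCGGC), for the palindromic STAT motif TTCNNNGAA and for the interferon response motif GAAANNGAA. A RUNX motif was present in at least 1 window of 7 of the 9 genes (Stat3 and Stat5b had none), against 45.2% of all 32851 windows. The interferon response motif was present for 3 of the 9 genes, Stat2, Jak3 and Stat4, against 8.56% of all windows, and the STAT motif for 0 of the 9, against 8.3%. Genes can have more than 1 window, and a match of letters does not show that a factor binds there. The 3 windows with the interferon motif are shown for the 250 bases before the start, 5′ to 3′ on the gene's strand, because Stat2 and interferon response genes differed between the genotypes. Capitals mark the interferon response and RUNX motifs. The Stat2 bases lie at chr10:128270248-128270497, those of Jak3 at chr8:71676133-71676382, and those of a second, downstream start of Stat4 at chr1:52007990-52008239, all on the plus strand.
Stat2: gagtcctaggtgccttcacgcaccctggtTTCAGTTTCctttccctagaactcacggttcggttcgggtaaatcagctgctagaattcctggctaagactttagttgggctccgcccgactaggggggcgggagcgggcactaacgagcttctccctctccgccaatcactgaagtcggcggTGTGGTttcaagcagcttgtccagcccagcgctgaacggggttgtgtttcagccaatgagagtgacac
Jak3: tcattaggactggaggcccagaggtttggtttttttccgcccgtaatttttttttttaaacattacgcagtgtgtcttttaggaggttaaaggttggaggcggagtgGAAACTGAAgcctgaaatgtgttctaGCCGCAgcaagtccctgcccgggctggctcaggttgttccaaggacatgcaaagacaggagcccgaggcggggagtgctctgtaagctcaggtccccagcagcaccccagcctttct
Stat4: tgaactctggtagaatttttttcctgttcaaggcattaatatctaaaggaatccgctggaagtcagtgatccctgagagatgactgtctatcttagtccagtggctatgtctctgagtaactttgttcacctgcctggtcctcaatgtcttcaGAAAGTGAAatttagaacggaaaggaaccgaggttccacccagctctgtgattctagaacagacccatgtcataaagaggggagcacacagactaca
In Stat2 the interferon motif TTCAGTTTC begins at base -221 from the start, and its complement on the other strand, GAAACTGAA, is the sequence that Jak3 holds from base -143. The RUNX motif TGTGGT of Stat2 lies nearer, from base -68.

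Facts of the whole array set frame these values. Deposited RMA signals, on the log2 scale, had array medians between 3.45 and 3.53, and the 8 genes lay well above these, with mean signals between the 80.2nd and the 98.7th percentile of all 35399 probe sets. Signals of different probe sets are not comparable as RNA amounts, so that no order of abundance is given among the genes. The Runx3 probe set itself gave a difference of 0.16 ± 0.16 (SE, n = 3 per group, limma adjusted p = 0.559), and whether it reads the part missing from the allele is unknown here, so that it checks no label. Cd4 and Itgae separated the genotypes by 2.57 and -2.61. Of 9924 genes tested, limma called 11.6% at an adjusted p under 0.05, 5.63% higher and 6.00% lower in Runx3-/- cells. The median difference of all genes was 0.0062, and 51.1% of genes had a positive difference.

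Of the 8 measured genes, Stat2 was higher in Runx3-/- CD8-TC, and the other 7 did not pass the test. Thus 1 gene was called higher and 0 lower, against the 5.63% and 6.00% of all genes, so that the families as a whole did not stand out in number of calls. Differences were positive for 7 of the 8, with a median of 0.14 on the log2 scale. The groups did not overlap for Stat2, Stat5a and Stat5b, 3 of the 8, where 33.6% of all genes tested had groups that did not overlap and 17.4% did so with the higher values in Runx3-/- cells.

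Stat2, the STAT factor of the type I interferon response, gave signals of 6.42, 6.52 and 6.54 in WT mice, against 7.12, 7.26 and 6.95 in Runx3-/- mice (probe set 10367224, RMA signal, log2). Every Runx3-/- array lay above every WT array, by at least 0.41. The mean was 6.49 ± 0.06 in WT and 7.11 ± 0.15 in Runx3-/- cells (SD, n = 3), a difference of 0.62 ± 0.11 (SE, 95% interval 0.38 to 0.86) or 1.53-fold (limma adjusted p = 0.00849). Of all genes tested, 7.37% had a larger difference in either direction. Stat2 also met the rule of the methods, a change of at least 1.5-fold at an unadjusted p under 0.05, which 8.07% of all genes met, though narrowly. Without Runx3-/- replicate 2 it was 1.46-fold and without WT replicate 1 it was 1.497-fold, under that limit, whereas the limma call held without any single array (adjusted p between 0.0122 and 0.0369). Without moderation of variances across genes the adjusted p of Stat2 was 0.0771. In mixed RNA of a cell population, more cells with a transcript and more transcript per cell cannot be told apart.

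Stat5a and Stat5b, the close relatives that answer IL-2, had small positive differences that did not pass. Stat5b read 7.31, 7.36 and 6.999 in WT mice, against 7.55, 7.60 and 7.39 in Runx3-/- mice (probe set 10391286). The groups were separated by a gap of only 0.03, and WT replicate 3 lay below the other WT arrays. The difference was 0.29 ± 0.12 (SE, 1.22-fold, 95% interval 0.01 to 0.57, limma adjusted p = 0.161). Stat5a read 6.98, 6.91 and 6.75 in WT mice, against 7.22, 7.10 and 6.99 in Runx3-/- mice (probe set 10381172), again with a low WT replicate 3 and a gap of 0.01 between the groups. Its difference was 0.22 ± 0.10 (SE, 1.17-fold, interval -0.02 to 0.46, adjusted p = 0.209). Stat5b, Stat5a and Stat3 follow each other along chromosome 11 in the RefSeq table. Stat3, at their end, read 8.09, 8.07 and 8.33 in WT mice, against 8.55, 8.34 and 8.13 in Runx3-/- mice (probe set 10391301), so that its groups overlapped, with a difference of 0.18 ± 0.13 (SE, interval -0.12 to 0.47, adjusted p = 0.417). WT replicate 3 was the highest WT array for Stat3 and the lowest for both Stat5 genes.

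**Figure D1:**
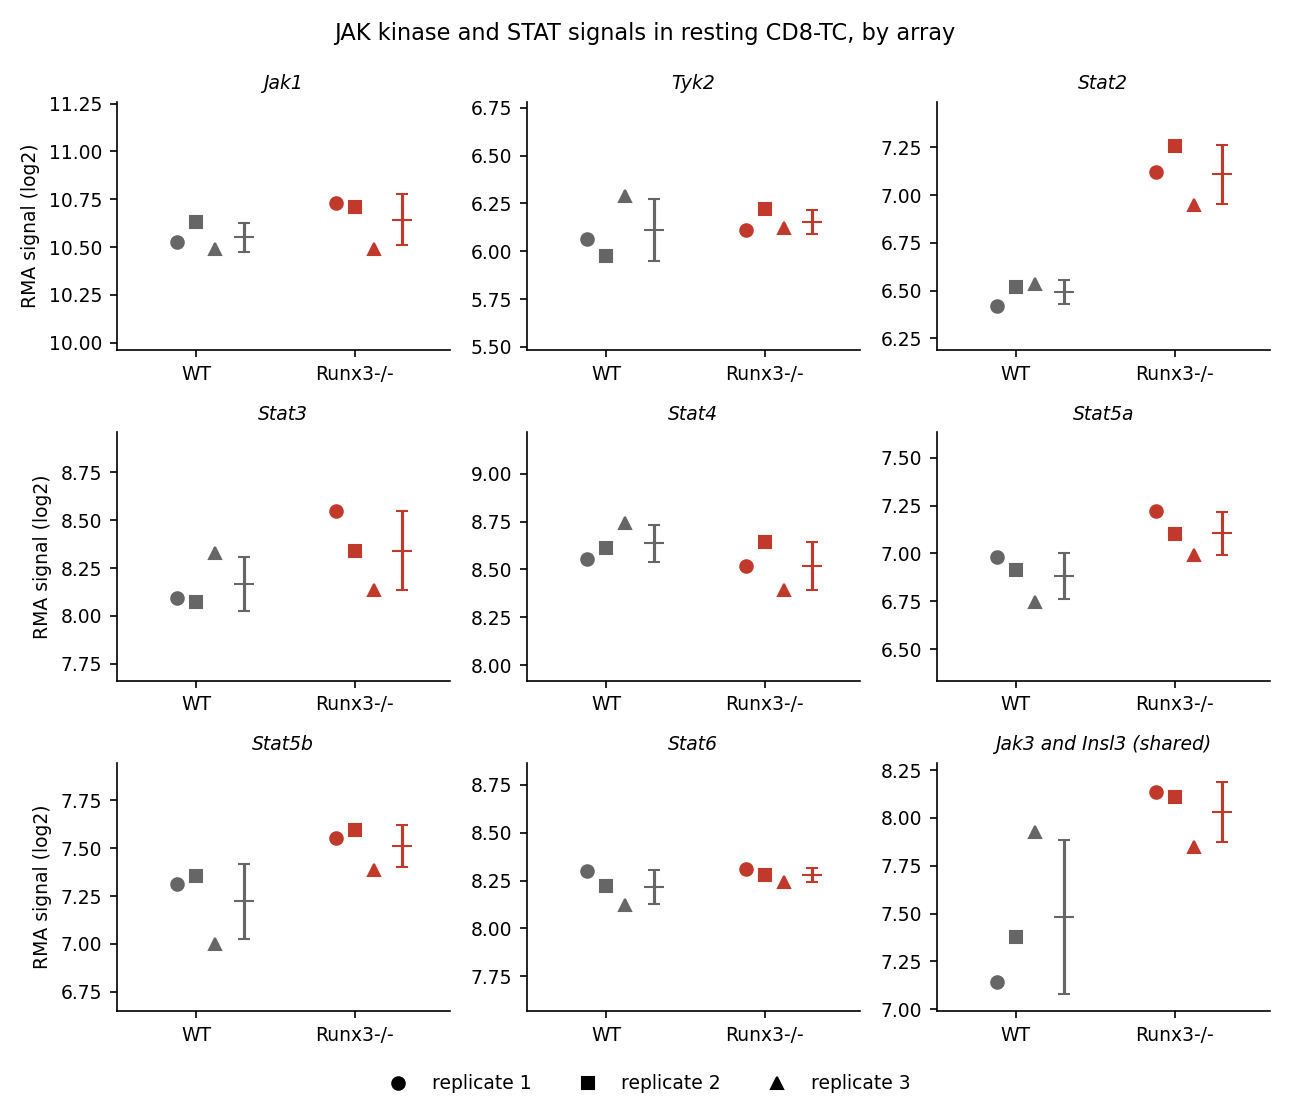
Log2 RMA signal (vertical axis) of single arrays, WT in grey and Runx3-/- in red, for 8 genes and for the probe set shared by Jak3 and Insl3, with 1 symbol per replicate number, the mean and the SD of n = 3 mice. Each panel spans the same range in log2 units, and Stat2 shows the widest space between the groups, from 6.54 to 6.95.

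The remaining STAT factors differed little. Stat6, which answers IL-4, read 8.30, 8.22 and 8.12 in WT mice, against 8.31, 8.28 and 8.24 in Runx3-/- mice (probe set 10366956), and its WT values reached into the range of the Runx3-/- arrays. The difference was 0.06 ± 0.09 (SE, interval -0.14 to 0.27, limma adjusted p = 0.702). Stat4, which answers IL-12 and leads to interferon gamma production, had the only negative difference. It read 8.55, 8.61 and 8.74 in WT mice, against 8.52, 8.65 and 8.39 in Runx3-/- mice (probe set 10346168), with overlapping groups, a difference of -0.12 ± 0.10 (SE, interval -0.35 to 0.12) and an adjusted p of 0.516 in limma.

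The kinases measured alone also gave no call. Jak1 read 10.53, 10.63 and 10.49 in WT mice, against 10.73, 10.71 and 10.49 in Runx3-/- mice (probe set 10514668). Runx3-/- replicates 1 and 2 lay above all WT arrays, whereas replicate 3 equalled the lowest WT array to 2 decimals, and the difference was 0.09 ± 0.10 (SE, interval -0.14 to 0.33, limma adjusted p = 0.601). Tyk2 read 6.07, 5.97 and 6.29 in WT mice, against 6.11, 6.22 and 6.12 in Runx3-/- mice (probe set 10591446), with all Runx3-/- values inside the WT range. Its difference, 0.04 ± 0.11 (SE, interval -0.20 to 0.29, adjusted p = 0.837), was -0.027 without WT replicate 2. The intervals of Stat3, Stat4, Stat5a, Stat5b, Stat6, Jak1 and Tyk2 all stop short of a 1.5-fold change in either direction, and that of Stat2 includes it.

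The probe set shared by Jak3 and Insl3 had a wider spread in WT than any of the 8 genes. Its signals were 7.14, 7.38 and 7.93 in WT mice, against 8.13, 8.11 and 7.85 in Runx3-/- mice (probe set 10572693). WT replicate 3 lay above Runx3-/- replicate 3, so that the groups overlapped. The mean was 7.48 ± 0.40 in WT and 8.03 ± 0.16 in Runx3-/- cells (SD, n = 3), and the difference 0.55 ± 0.21 (SE, interval 0.04 to 1.05) lay between 0.38 and 0.77 with any 1 array left out. It was not among the genes tested, since which of the genes it reports cannot be told apart.

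**Figure D2:**
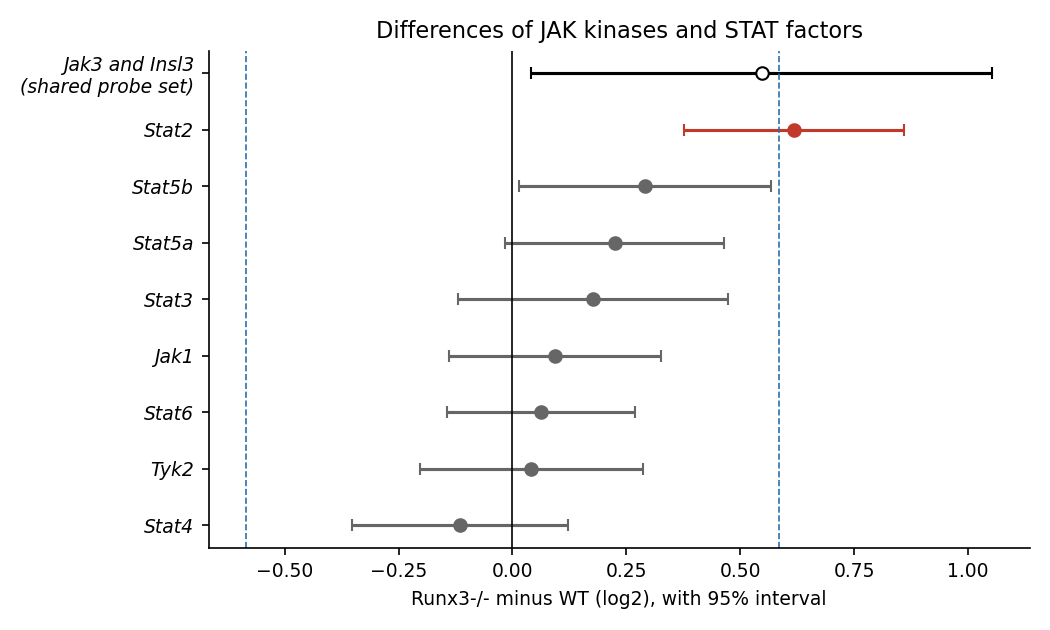
Difference between Runx3-/- and WT on the log2 scale (horizontal axis) with its 95% interval for each gene (vertical axis), with Stat2 in red as the only gene past the test. Dashed lines mark a 1.5-fold change, and the open symbol is the probe set shared by Jak3 and Insl3, at 0.55.

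Within the Runx3-/- group the genes shared a low array. Runx3-/- replicate 3 had the lowest of the 3 values for 7 of the 8 genes, all except Tyk2, and the highest for 0. Over all genes tested, the same array was the lowest of its group for 48.2% and the highest for 20.9%, with a median deviation of -0.049 from the group mean, against -0.13 over the 8 genes. The same array was also the lowest of its group for 10 of 11 CD8-TC markers, and the part of this in the values was not tested. In WT no single array had such a place for the 8 genes, though WT replicate 3 was lowest for all 11 CD8-TC markers. WT replicate 3 was lowest for 4 genes (Stat5a, Stat5b, Stat6 and Jak1) and highest for the other 4.

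Over the 6 arrays, the tested genes whose signals most resembled that of Stat2 were Angel2 (Pearson r = 0.997), Dcaf5 (r = 0.993) and the kinase Fyn of T cell receptor signalling (r = 0.992). The 6 arrays fall into the 2 genotypes, so that these values largely express the difference between genotypes and describe these arrays only. Fyn rose by 0.39 ± 0.10 (SE) and Dcaf5 by 0.49 ± 0.09 (limma adjusted p = 0.0376 and 0.0135), whereas Angel2 gave 0.22 and did not pass (adjusted p = 0.147).

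The genes around the JAK and STAT factors were described by lists of receptor chains, inhibitors and known target genes. These lists were chosen with earlier results of these data known, so that their counts are descriptions only. Of 86 such genes tested, each counted once, 24 were higher and 6 lower in Runx3-/- cells, 34.9% against 11.6% of all genes, with a median difference of 0.20 against 0.0062. Without moderation of variances 6 passed, and with any 1 array left out between 20 and 28. For Il2ra, Foxp3 and Cish among the higher genes and Il9r and Fcer2a among the lower, 1 genotype lay under the array medians throughout, and without these 21 were higher and 4 lower.

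Among 19 receptor chains that signal through JAK kinases, 5 were higher and 1 was lower, and their median was 0.07. Thus 31.6% were called, against 11.6% of all genes tested. Il2ra, the high-affinity chain for IL-2, read 3.29, 3.24 and 3.47 in WT mice, against 5.51, 5.35 and 5.86 in Runx3-/- mice, and its groups were far apart (2.23 ± 0.14, SE, limma adjusted p = 8.1e-05). The IL-21 receptor chain Il21r rose by 0.61, Il4ra, which binds IL-4 and signals to Stat6, by 0.50, the IL-12 receptor chain Il12rb1 by 0.92 and the type I interferon receptor chain Ifnar1 by 0.49, and Il9r fell by 1.45. Il4ra did not pass under 5 of 15 alternatives, Il9r under 3, Il12rb1 under 4 and Ifnar1 under 8. The 6 calls were 3 without WT replicate 1 or without WT replicate 2. The second chains of the interferon and IL-12 receptors did not pass, with -0.02 for Ifnar2 and -0.35 for Il12rb2, nor did Il2rb (0.13) and Il7r (0.07). Il2rb was high in WT replicate 3, at 9.50 against 8.51 and 8.56 in the other WT arrays.

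Of 17 inhibitors, 4 were higher and 1 was lower (29.4% called, against 11.6% of all genes tested), with a median of 0.06. These 5 calls were 3 without WT replicate 1, without WT replicate 2 or without Runx3-/- replicate 3. Usp18, which restrains type I interferon receptors, rose by 2.62 ± 0.19 (SE). The SOCS family genes, whose products block receptors or kinases in a feedback loop, were split. Cish read 3.02, 3.02 and 3.08 in WT, under the array medians, and 4.22, 4.45 and 4.53 in Runx3-/- arrays, a rise of 1.36 ± 0.10. Socs3 rose by 1.04 ± 0.15 and Socs1 by 0.50 ± 0.13 (limma adjusted p = 0.0473), but Socs1 did not pass under 9 of 15 alternatives. The difference of Socs3 lay between 0.70 and 1.20 over the 15 alternatives, and it did not pass under 1. Socs2 gave -0.54 ± 0.27 and did not pass. The phosphatase Ptpn6 (SHP-1) fell by 0.42 ± 0.09 (adjusted p = 0.0211), and its 3 WT values from 9.22 to 9.34 all lay above its Runx3-/- values from 8.80 to 8.92. It did not pass under 6 of 15 alternatives. The PIAS genes and Socs4 to Socs7 gave 0 calls of 8, with differences between -0.09 and 0.31.

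**Figure D3:**
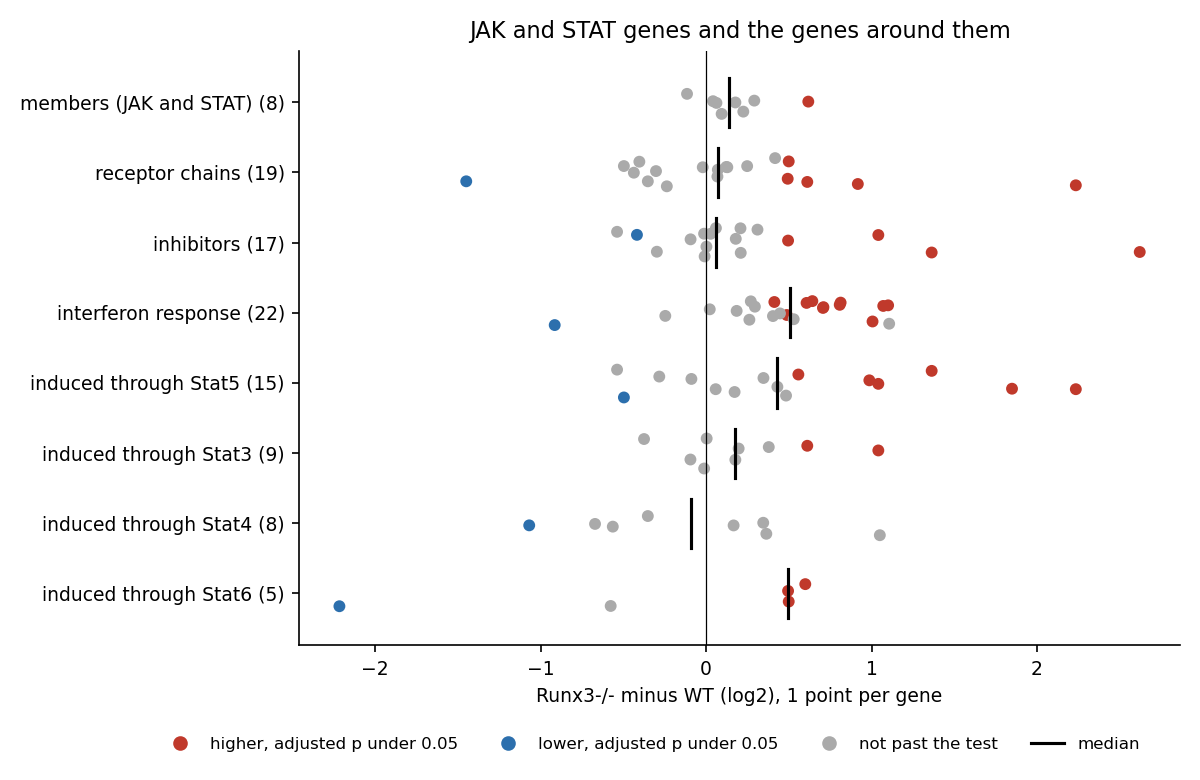
Differences between Runx3-/- and WT on the log2 scale (horizontal axis), 1 point per gene tested, for the JAK and STAT genes and for each list of genes around them (vertical axis, with the number of genes), red for higher, blue for lower and grey for not past the test, with each list's median as a black line. Medians are 0.14 for the JAK and STAT genes, 0.51 for interferon response genes and 0.43 for genes known to be induced through Stat5.

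Interferon response genes, which Stat2 serves, were examined beside it. Of 22 tested, 11 were higher and 1 was lower (54.5% called, against 11.6% of all genes tested), and their median was 0.51. The 12 calls were 7 without Runx3-/- replicate 2 and 1 without moderation of variances. Irf9, which encodes the DNA-binding partner of Stat2, read 6.75, 6.61 and 6.84 in WT mice, against 7.29, 7.20 and 7.17 in Runx3-/- mice, and the groups did not overlap (0.49 ± 0.10, SE, limma adjusted p = 0.0161). Irf9 did not pass under 3 of 15 alternatives. Ifit2, Zbp1, Irf7 and Oasl2 had the lowest p values, with rises of 1.10, 1.07, 1.01 and 0.81. Ifit3 (0.81), Xaf1 (0.71), Rtp4 (0.71), Mx1 (0.64), Dhx58 (0.61) and Parp14 (0.41) also rose, and Rsad2, an antiviral enzyme gene, fell by 0.92. Rsad2 did not pass under 6 of 15 alternatives, among them the replicate block and the omission of any 1 Runx3-/- array, and Mx1 and Parp14 did not pass under 7. Runx3-/- replicate 2, in which Stat2 was highest, was the highest Runx3-/- array for 18 of the 22 interferon genes (81.8%), as for 43.6% of all genes tested. The same array was also the highest Runx3-/- array for 15 of 16 dendritic cell markers (93.8%), whose mean signal was 7.11 there against 6.41 and 6.32 in Runx3-/- replicates 1 and 3. Siglech, a marker of plasmacytoid dendritic cells, which are known for type I interferon production, read 6.06 in that array, 4.82 and 4.45 in the other Runx3-/- arrays and between 4.27 and 4.61 in WT (difference 0.72, limma adjusted p = 0.23). Bst2, of the same marker list, read 6.93 in Runx3-/- replicate 2 and 6.84 and 6.99 in Runx3-/- replicates 1 and 3. Tcf4, a factor of plasmacytoid dendritic cells in that list, read 5.32 in Runx3-/- replicate 2 and 4.57 and 4.11 in Runx3-/- replicates 1 and 3. In WT it read 4.72, 5.01 and 5.43 (difference -0.39, limma adjusted p = 0.435). In WT the dendritic cell markers were highest in replicate 3, at 7.76. Without Runx3-/- replicate 2, Stat2 gave a difference of 0.54 (limma adjusted p = 0.0309), and 7 interferon genes were called. Leaving out 1 array does not show what dendritic cells add in the others. The part of dendritic cells in the Stat2 and interferon values was not tested. Ifit1 showed the widest spread there, with 5.03, 5.77 and 4.34 in the Runx3-/- arrays and 4.44, 3.94 and 3.44 in WT, so that its difference of 1.11 ± 0.36 did not pass (adjusted p = 0.0851).

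**Figure D4:**
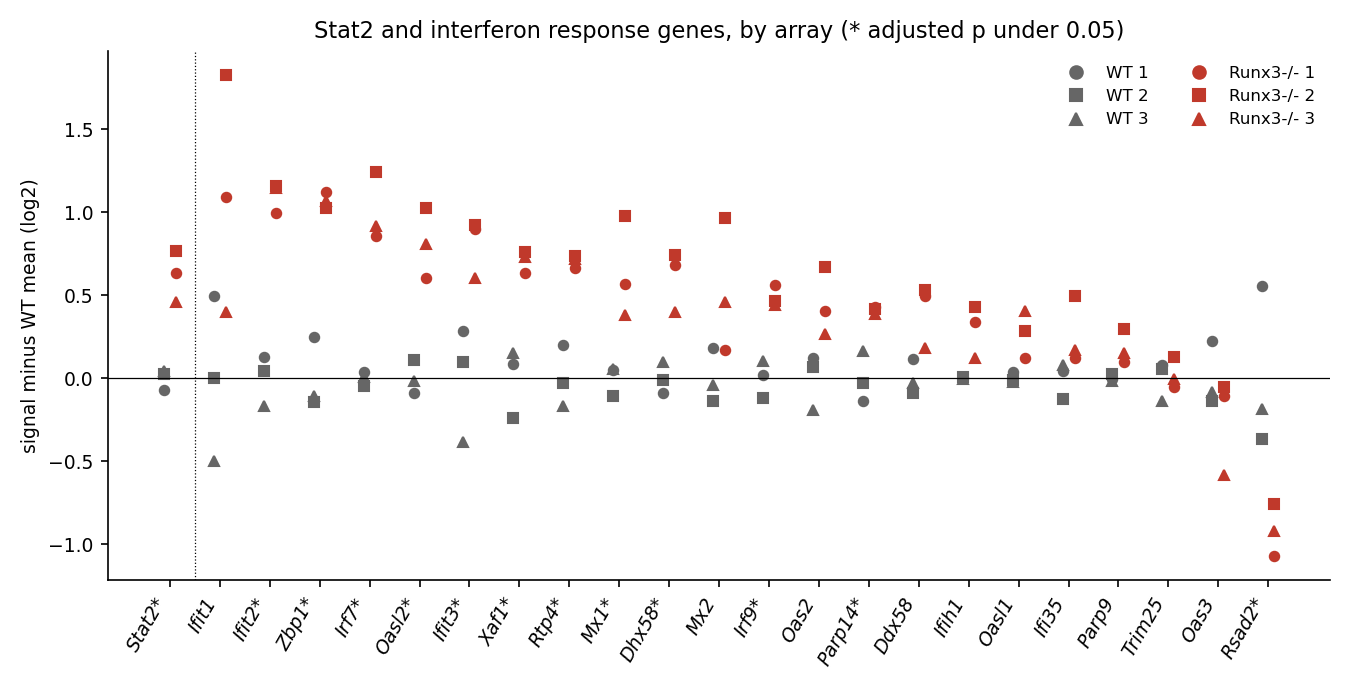
Signal of Stat2 and of 22 interferon response genes (horizontal axis) in each array, as the difference from the WT mean on the log2 scale (vertical axis), with WT arrays in grey, Runx3-/- arrays in red, 1 symbol per replicate number and asterisks for genes past the test. Runx3-/- replicate 2 (red squares) is the highest Runx3-/- array for 18 of the 22 genes, and Rsad2, the called gene below the line at 0, did not pass under 6 of 15 alternatives.

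Known target genes of the other STAT factors were counted for each factor. The share called was 46.7% for Stat5, 22.2% for Stat3, 12.5% for Stat4 and 80% for Stat6, against 11.6% of all genes tested. That of Stat4 was thus near the share over all genes. Of the 10 genes measured for Stat6, 5 lay under the median signal in every array and were not tested, as did 2 for Stat4, 2 for Stat3 and 1 for Stat5. Of 15 genes known to be induced through Stat5, 6 were higher and 1 was lower, with a median of 0.43. Il2ra, Foxp3 (1.85 ± 0.13, SE), which encodes the regulatory T cell factor, Cish and the cytokine Osm (0.99 ± 0.12) had the lowest p values, Socs3 and the kinase Pim1 (0.56) also rose, and Myc fell by 0.50. Myc did not pass under 5 of 15 alternatives, among them the omission of WT replicate 1 or 2 or of Runx3-/- replicate 2 or 3. Il2ra, Foxp3 and Cish lay under the median signal in every WT array and entered the test only through the Runx3-/- arrays, so that the size of their differences is uncertain, though all passed without a filter on signal as well. With these set aside, 3 Stat5 genes were higher and 1 was lower. Bcl2 (0.48), Ccnd2 (0.06) and Prf1 (-0.09) did not pass. Of 9 genes induced through Stat3, Socs3 and Il21r were higher and 0 lower, and Bcl6 (-0.38) and Mcl1 (0.18) did not pass. Of 8 genes induced through Stat4, the protease gene Furin was lower, at -1.07 ± 0.14, and 0 were higher. Map3k8 (-0.67), Ifng (0.36), Il12rb2 (-0.35) and Il18r1 (1.05) did not pass. Il18r1, the receptor of IL-18, was set apart by WT replicate 3, which read 6.84 against 5.12 and 5.21 in the other WT arrays. Tbx21 and Eomes, factors of effector and memory CD8-TC and of natural killer cells, were likewise highest among WT in replicate 3, at 5.86 and 8.05. Natural killer cell markers had a mean signal of 6.77 in that array, against 6.51 and 6.38 in WT replicates 1 and 2. Means of B and dendritic cell markers were also highest there among WT, and those of CD8-TC, macrophage and neutrophil markers lowest. The part of other cells in these values was not tested. Of 5 genes induced through Stat6, Il4ra, Gata3 (0.60 ± 0.14) and Socs1 were higher and Fcer2a was lower, at -2.22, and Fcer2a is also a B cell marker. Gata3 did not pass under 7 of 15 alternatives. The 4 Stat6 calls were 1 without WT replicate 1, without WT replicate 2 or without Runx3-/- replicate 1, and 2 without Runx3-/- replicate 2. The single Stat4 call became 2 without WT replicate 1, without WT replicate 3 or without Runx3-/- replicate 2. Fcer2a likewise lay under the median in every Runx3-/- array, and with it set aside 3 Stat6 genes were higher and 0 lower. A gene can stand in several of these lists, and none is a target of a single factor only.

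Markers of several other cell types were lower in Runx3-/- samples. In mixed RNA, fewer such cells and less transcript per cell cannot be told apart. Of all genes tested, 5.63% were called higher and 6.00% lower. The CD8-TC markers were bright in all arrays, with a mean signal over 11 measured markers from 9.37 to 9.61 in WT and from 9.60 to 9.80 in Runx3-/- arrays, and 2 of 11 were called, Lat (0.55) and Zap70 (0.44). The brightest, Cd8a, Cd3g and Cd8b1, gave -0.04, 0.18 and -0.14, none past the test. For Cd8a this small difference was positive when arrays were quantile normalized (0.014) and when Runx3-/- replicate 3 was left out (0.036). The 2 calls were 0 without Runx3-/- replicate 1 or without Runx3-/- replicate 2, and 1 without WT replicate 1, without WT replicate 3 or without Runx3-/- replicate 3. Of 17 B cell markers 16 were lower, with a mean signal from 6.16 to 6.83 in WT and from 4.41 to 4.56 in Runx3-/- arrays, among them Cd79a (-3.20), Cd79b (-2.29) and Ralgps2 (-0.50). Of 18 macrophage and monocyte markers 17 were lower (6.32 to 6.54 against 3.97 to 4.55), among them Slc40a1, Lyz2 and Vcam1, and of 7 erythroid markers tested 6 (4.57 to 5.28 against 3.25 to 3.37 over 8 measured), among them Alas2, Slc4a1 and Car2. Of 16 dendritic cell markers tested, 4 were lower, with a mean signal of 7.04, 7.03 and 7.76 in WT and 6.41, 7.11 and 6.32 in Runx3-/- arrays, so that the groups overlapped, and the brightest, Cd74, H2-Aa and H2-Eb1, did not pass. These 4 calls were 0 without Runx3-/- replicate 3 and 2 without WT replicate 1, without WT replicate 3 or without Runx3-/- replicate 1. Of 6 natural killer cell markers 4 were lower, among the brightest Nkg7 (-1.51) and Klrd1 (-2.03) but not Tyrobp. CD8-TC can also transcribe Nkg7 and Klrd1, so that these signals cannot be assigned to natural killer cells. Of 4 neutrophil markers 3 were lower, S100a8, Ngp and Lcn2, while S100a9 did not pass. The 3 neutrophil calls were 1 without WT replicate 1 or without any 1 Runx3-/- array. Of the lower calls, 2 B cell, 3 macrophage and monocyte, 4 erythroid and 3 neutrophil markers lay under the array medians in Runx3-/- arrays. These entered the test only through the WT arrays, so that the size of their differences is uncertain. With these set aside, 14 B cell, 14 macrophage and monocyte, 2 erythroid and 0 neutrophil markers were lower. In these 6 lists of other cell types 0 markers passed the limma test as higher in Runx3-/- cells, and positive differences that did not pass were those of Siglech (0.72), Bst2 (0.31) and Cd72 (0.04). Which of these cell types transcribe each JAK and STAT gene was not measured here, and the part of other cells in the values given here was not tested.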

How the data were processed

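Total RNA of resting CD8-TC from 6 mice (3 WT, 3 Runx3-/-) was hybridised to 6 arrays. The deposited values were log2 signals, which the authors made by GC-corrected RMA in Partek (both named in the submitters' processing notes, without a version or genome build). No value was renormalized. The platform annotation paired 21789 probe sets with a single gene and 1621 with several, and the latter were not tested. A gene was tested when it reached the array's median signal in at least 1 array. Runx3-/- minus WT was fitted with limma (version 3.58.1, R 4.3.3; lmFit, eBayes, no covariates, two-sided), with Benjamini-Hochberg adjustment over the 9924 genes and a threshold of 0.05. The number of arrays limits the precision. The members and lists were chosen with earlier results of these data known, and no list was tested as a set. Genes named are the members, up to 4 genes of each pathway list with the lowest p, Cish, Socs1 to Socs3, Irf9 and Usp18, the 3 genes most like a called member, and the 3 brightest markers of each cell type. Further genes were named for their values after these were seen. Alternatives were the replicate block, quantile normalization, median centring, other filters on signal, the mean of probe sets, no moderation, an intensity trend with a robust prior, array weights, each array left out and the fold and p rule of the methods.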

Additional observations from a re-analysis of the deposited data

How the results depend on the processing

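Stat2 passed under 14 of 15 alternatives, with a difference between 0.54 and 0.70. Without moderation of variances it kept its difference of 0.617 but did not pass (adjusted p = 0.0771), so that 0 of the 8 genes were called (1, Stat2, at an unadjusted p under 0.05), as were 178 of all genes and 6 of the pathway genes. The other 7 genes passed under none of the 15 alternatives. With any 1 array left out, Tyk2 lay between -0.027 (without WT replicate 2, a change of sign) and 0.13, and all genes called numbered between 619 and 920, with 619 without WT replicate 1, 631 without Runx3-/- replicate 2 and 620 without Runx3-/- replicate 3. Fewer arrays also lower the precision. Cd8a was 0.014 after quantile normalization, and with any 1 array left out lay between -0.091 and 0.036, positive without Runx3-/- replicate 3. With the replicate block, Stat2 gave 0.617 (limma adjusted p = 0.0246) and 1084 genes were called. The numbers name separate mice. Deviations from the group means correlated between same-numbered arrays with r = 0.18 for number 1, 0.032 for number 2 and -0.00014 for number 3. Arrays of unlike number and genotype gave r between -0.14 and 0.083. Whether same-numbered arrays share more than a number was not tested. The mean of probe sets changed no value of the 8 genes, each of which has a single probe set.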
